A study of Arabidopsis thaliana with 12 samples.

Results

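The comparison described here is the addition of sulfamethoxazole (SMX) to sucrose-grown Arabidopsis seedlings. Its members are 6 of the series' 12 arrays, chosen by their titles: 3 from seedlings given 10 mM sucrose together with 0.2 µM SMX and 3 from seedlings given 10 mM sucrose alone. All 22746 probe sets that are not Affymetrix controls were tested. The other 6 arrays, 3 with 0.2 µM SMX without sucrose and 3 with neither addition (control), share no sample with these 6 and served to set the same SMX difference without sugar beside it. Every group was wild type of the Columbia ecotype, collected as whole seedlings after 3 days of growth in liquid MS medium, in plates wrapped in foil for the cold treatment. Per the series' design text, the replicates were biological. The labels do not say how many seedlings made up a sample.

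SMX is a sulfonamide that competes with p-aminobenzoate at dihydropteroate synthase, the enzyme that joins the pterin and p-aminobenzoate parts of folate in plant mitochondria. Folates carry the single carbon units used to make purines, thymidylate and methionine. Sucrose is both a carbon source and a signal for young seedlings, and lowers transcripts that serve the breakdown of cell reserves under sugar shortage.

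By the spike score the labelling of the arrays was similar on both sides, though 3 against 3 arrays cannot establish that it was equal. The spike score, the mean log2 difference between the 3′ and 5′ probe sets of the dap, lys and phe control transcripts, was −0.50 to −0.04 on the sucrose plus SMX arrays and −0.52 to 0.30 on the sucrose arrays (exact two-sided permutation p = 0.9; Benjamini-Hochberg adjusted p = 1 over 9 labelling measures; the smallest p that 3 against 3 arrays allow is 0.1). It was 2.90 to 5.73 on the SMX arrays and 2.56 to 5.41 on the control arrays. For the thr control the 3′ minus 5′ difference was 1.41 to 4.67 with sucrose plus SMX and 1.19 to 2.60 with sucrose. For the actin, GAPDH and ubiquitin probe sets it was lower with sucrose plus SMX, by group mean differences of −0.33, −0.21 and −0.25. Values ran from a floor of 2.12, shared by all arrays, to 15.67 on the log2 scale, and array medians from 5.63 to 5.84. The precision is limited by 3 arrays per group, and by no count of molecules. The samples hold all organs, so fewer cells of a type and less RNA per cell cannot be told apart in any value below.

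With SMX on top of sucrose, few probe sets changed, and more of the called ones rose than fell. A limma fit of all 12 arrays with Benjamini-Hochberg adjustment called 43 probe sets at an adjusted p under 0.05, which is 0.189% of those tested. Of these, 27 were higher (0.119% of those tested) and 16 lower (0.0703%) with sucrose plus SMX than with sucrose alone. Among the 12962 probe sets whose higher group averaged 5 or more, 34 were called (0.262%), 20 higher (0.154%) and 14 lower (0.108%). At an unadjusted p under 0.05 there were 1256 probe sets, or 5.52%. The balance of rises and falls moved with the filter on low values: 32 higher and 34 lower with a mean above 4, and 11 higher and 27 lower with a mean above 6. The sizes of the called changes ran from 0.34 to 5.29 on the log2 scale with a median of 1.83, and 38 of the 43 were at least 1. Called or not, 0.47% of all probe sets were higher and 0.673% lower by at least 1. The 3 arrays of each group did not overlap for any of the 43, against 9.7% of all probe sets. The median change was 0 over all probe sets, of which 9416 were higher and 9536 lower, and −0.01 over those with a mean of at least 5. The deposited values had already been through the submitters' processing, in which GCRMA is named, and many repeat exactly between arrays. These medians therefore cannot show whether the middle of the distribution shifted.

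The calls rest on the spread estimated over all 4 groups. In a fit of the 6 sucrose arrays alone no probe set was called, with a lowest limma adjusted p of 0.0767 and 1456 at an unadjusted p under 0.05. The 43 had an unadjusted limma p of at most 0.00441 there. They were chosen on these same arrays and group means, so these p-values and their unchanged signs are no separate support. With the replicate number as a block, 28 were called, of which 24 were among the 43. The total was 26 without sucrose replicate 2 and 28 without SMX replicate 2. The number of falls depended on single arrays more than the number of rises: it was 6, 5, 7 and 27 without sucrose plus SMX replicates 1 and 3 and sucrose replicates 2 and 3, and 7 to 10 without any SMX array or control replicate 3.

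The 43 calls included 22 probe sets paired with 1 gene, 17 higher and 5 lower. A further 20 had no gene paired with them in the annotation used here and 1 had several. Of the 17 rises, 14 reached a mean of 5 with sucrose plus SMX. For 11 of those 14 the call held in each of 12 fits that left out 1 array. Where a sucrose mean below is under about 4 it lies close to the floor, and the fold is then not an exact size. In 6 of the 14, a value was repeated to 4 decimals on 2 to 4 of the 12 arrays, as it was for 46.8% of all probe sets, and the origin of such repeats was not tested.

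**Figure D1:**
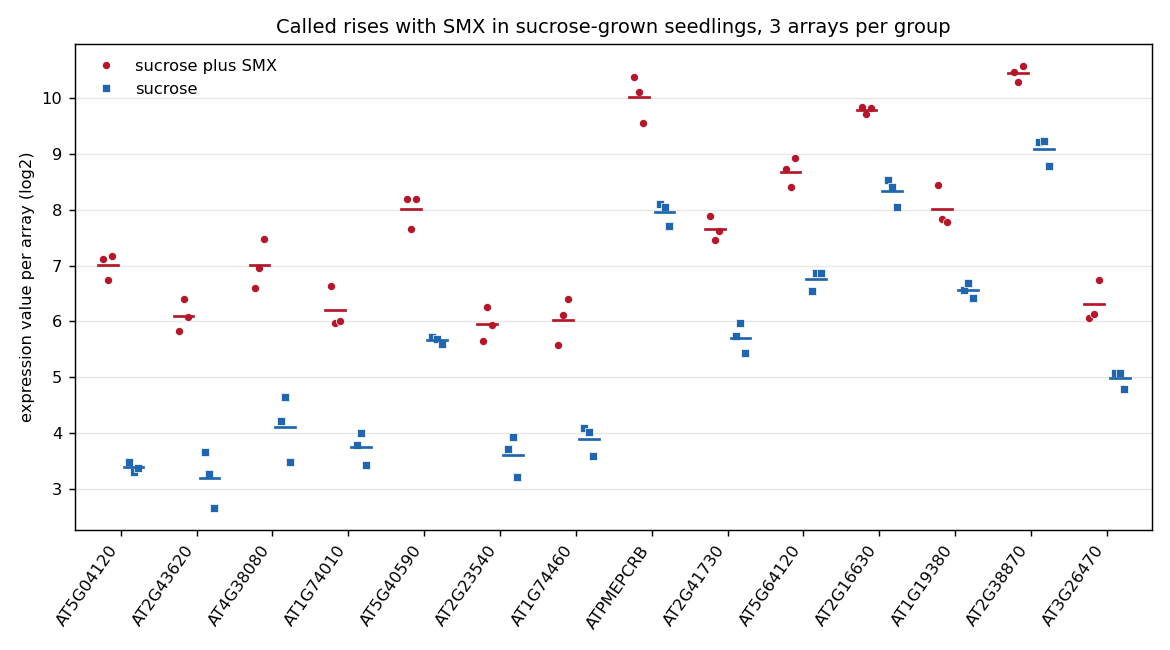
Log2 expression values of the 14 named genes that were called higher, on each of the 3 sucrose plus SMX arrays (red circles) and the 3 sucrose arrays (blue squares), with group means as bars, in order of the size of the change. All 3 sucrose plus SMX arrays lie above all 3 sucrose arrays for every gene, as the rule for naming genes required. The differences run from 3.63 (AT5G04120) down to 1.34 (AT3G26470).

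AT5G04120, which belongs to the phosphoglycerate mutase family of phosphate-transferring enzymes, had the largest rise of any named gene. It read 7.12, 6.74 and 7.18 on the log2 scale with sucrose plus SMX, against 3.47, 3.30 and 3.38 with sucrose. All 3 arrays with SMX stood far above the narrow range without it. The difference was 3.63 (SE 0.233), or 12.4-fold (limma, Benjamini-Hochberg adjusted p = 0.00142). Of 15 glycolysis probe sets none was called or had an unadjusted p under 0.05, and their changes lay between −0.15 and 0.39 with a median of 0.15.

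The named rises AT4G38080, ATPMEPCRB, AT5G64120 and AT2G16630 belong to families of secreted or cell wall proteins. This grouping is for presentation and is not a full count of such proteins among the rises. AT4G38080, of the hydroxyproline-rich glycoprotein family, had values of 6.60, 6.96 and 7.48 with sucrose plus SMX, against 4.21, 4.65 and 3.47 with sucrose. The groups stood apart by nearly 2 log2 units at their closest arrays. The rise of 2.90 (SE 0.317) was called (limma, Benjamini-Hochberg adjusted p = 0.0122), and with the replicate block its call ended at an adjusted p of 0.069. ATPMEPCRB (AT4G02330) encodes a pectin methylesterase, an enzyme that removes methyl groups from wall pectin. It read 10.39, 10.12 and 9.57 with sucrose plus SMX, against 8.11, 8.05 and 7.72 with sucrose, with means of 10.03 ± 0.42 and 7.96 ± 0.21 (SD, n = 3). That is a rise of 2.07 (SE 0.270; limma adjusted p = 0.0277). The call ended in 9 of the 12 fits with an array left out, at adjusted p from 0.0564 to 0.0968, and held without sucrose plus SMX replicate 3, control replicate 1 or control replicate 3.

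AT5G64120 encodes the class III peroxidase PRX71, a secreted enzyme that acts on wall phenolics. It read 8.73, 8.40 and 8.93 with sucrose plus SMX, against 6.55, 6.86 and 6.88 with sucrose. Both groups were tight and separate, and the rise of 1.92 (SE 0.193) corresponded to 3.80-fold (limma, Benjamini-Hochberg adjusted p = 0.00856). AT2G16630, a protein of the pollen Ole e 1 and extensin family, was higher with SMX in either medium. Its values were 9.85, 9.71 and 9.83 with sucrose plus SMX, against 8.54, 8.41 and 8.04 with sucrose, a rise of 1.47 (SE 0.137; limma adjusted p = 0.00611).

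AT2G43620, AT2G38870 and AT3G26470 belong to families known from defence against microbes and feeding animals. They were taken from the called rises, so their shared direction was given by that choice. In the separate list of 7 pathogenesis and defence probe sets none was called or had an unadjusted limma p under 0.05. Of these, 3 were higher and 3 lower, and the median change was 0. AT2G43620, of the chitinase family that cuts chitin of fungal walls, read 5.83, 6.41 and 6.07 with sucrose plus SMX, against 3.65, 3.26 and 2.65 with sucrose. Only the arrays with both additions were well above the floor. The rise was 2.92 (SE 0.237; limma, Benjamini-Hochberg adjusted p = 0.00279). AT2G38870, a protease inhibitor of the potato inhibitor I type, had 10.48, 10.29 and 10.58 with sucrose plus SMX, against 9.22, 9.24 and 8.80 with sucrose. The groups were more than 1 log2 unit apart, and the rise was 1.36 (SE 0.148; limma adjusted p = 0.0122). AT3G26470 carries the RPW8 domain found in resistance proteins against powdery mildew. Its values were 6.06, 6.14 and 6.75 with sucrose plus SMX, against 5.08, 5.07 and 4.79 with sucrose. The rise of 1.34 (SE 0.189; limma adjusted p = 0.0408) was the least stable of the 14: it stayed called in 1 of 12 fits, that without sucrose plus SMX replicate 3, with adjusted p of 0.056 to 0.118 in the others, 0.116 with the replicate block, 0.0612 after quantile normalization and 0.0794 with the spike score.

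AT1G74010, a member of the strictosidine synthase-like family of calcium-dependent phosphotriesterases, read 6.64, 5.98 and 6.01 with sucrose plus SMX, against 3.79, 4.00 and 3.43 with sucrose. The lowest array with SMX was above the highest without it by nearly 2 log2 units. The rise was 2.47 (SE 0.201), or 5.53-fold (limma, Benjamini-Hochberg adjusted p = 0.00279). AT5G40590 encodes a protein with cysteine- and histidine-rich C1 domains, which in other proteins bind lipid messengers. It read 8.20, 7.65 and 8.19 with sucrose plus SMX, against 5.72, 5.68 and 5.59 with sucrose, a rise of 2.35 (SE 0.189; limma adjusted p = 0.00279). Its 3 SMX arrays and sucrose replicate 2 carried the identical value 5.68.

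AT2G23540 and AT1G74460 belong to the GDSL lipase family, esterases that act on lipids and often on surface waxes and cutin. A further named member of that family, AT1G75900, had a lower level with SMX that was not called and is given below. AT2G23540 had 5.65, 6.26 and 5.94 with sucrose plus SMX, against 3.71, 3.92 and 3.20 with sucrose. Its rise was 2.34 (SE 0.259; limma, Benjamini-Hochberg adjusted p = 0.0132; 0.069 with the replicate block). AT1G74460 had 5.58, 6.12 and 6.40 with sucrose plus SMX, against 4.09, 4.01 and 3.60 with sucrose. Its rise was 2.14 (SE 0.204; limma adjusted p = 0.0067). Neither gene's groups overlapped, as the rule for naming genes required.

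The remaining named rises were genes with little described function. AT2G41730 read 7.90, 7.47 and 7.62 with sucrose plus SMX, against 5.73, 5.97 and 5.43 with sucrose, a rise of 1.95 (SE 0.212; limma, Benjamini-Hochberg adjusted p = 0.0122). Its probe set is of the kind whose probes can also match other transcripts. AT1G19380, with a domain of unknown function, read 8.45, 7.83 and 7.79 with sucrose plus SMX, against 6.57, 6.69 and 6.42 with sucrose. Its rise was 1.46 (SE 0.179; limma adjusted p = 0.0216), and its call ended with the replicate block (0.0605) and without any of the sucrose arrays, SMX replicate 1 or control replicate 3 (0.0519 to 0.0699).

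The 3 called rises of named genes that stayed under a mean of 5 were chosen for mention after their values were seen, as their low level put them outside the naming rule, except CML41, which is a called list member. AT5G12420, of the wax ester synthase and diacylglycerol acyltransferase family, read 4.19, 4.22 and 4.49 with sucrose plus SMX, against 2.45, 2.50 and 2.26 with sucrose (rise of 1.90, SE 0.131; limma, Benjamini-Hochberg adjusted p = 0.00142). CML41, a calmodulin-like calcium sensor, read 3.48, 4.15 and 4.20 with sucrose plus SMX, against 2.47, 2.33 and 2.37 with sucrose (rise of 1.55, SE 0.203; limma adjusted p = 0.0277). AT2G22510, a hydroxyproline-rich glycoprotein family member, had a rise of 0.99 (SE 0.125; limma adjusted p = 0.0254). The sucrose arrays of all 3 lay near the floor. The calls of CML41 and AT2G22510 each held in 3 of 12 fits with an array left out, with adjusted p of 0.0554 to 0.0989 and 0.0539 to 0.0968 in the others. That of CML41 held without sucrose plus SMX, SMX or control replicate 1, and ended with the replicate block (0.116) or the spike score as a covariate (0.0592). That of AT2G22510 held without sucrose plus SMX replicate 1, sucrose replicate 3 or control replicate 1, and ended with the spike score (0.0541).

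Named falls were fewer and smaller. AT1G12080, which encodes a vacuolar calcium-binding-like protein, read 12.21, 12.20 and 12.12 with sucrose plus SMX, against 13.34, 13.28 and 12.87 with sucrose. The level fell by 0.99 on the log2 scale (SE 0.122), so it was 1.99-fold lower with SMX (limma, Benjamini-Hochberg adjusted p = 0.0224). AT5G24580, with a heavy-metal-associated domain that binds metal ions, read 5.69, 5.55 and 5.46 with sucrose plus SMX, against 6.50, 6.84 and 6.59 with sucrose. It fell by 1.08 (SE 0.147; limma adjusted p = 0.0323). AT2G19660 carries C1 domains like AT5G40590 but moved the other way. It read 6.16, 6.45 and 6.16 with sucrose plus SMX, against 7.07, 7.43 and 7.25 with sucrose, and fell by 0.99 (SE 0.139; limma adjusted p = 0.0384). AT1G76590, a plant-specific zinc-binding transcription factor of the PLATZ family, changed least of all called genes. Its values of 4.97, 4.88 and 4.85 with sucrose plus SMX stood against 5.26, 5.28 and 5.18 with sucrose, a fall of 0.34 with a small error (SE 0.0443; limma adjusted p = 0.0277).

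None of these 4 falls held in all 12 fits with an array left out. The call of AT1G12080 held without sucrose replicate 3, SMX replicate 3, control replicate 1 or control replicate 3 (0.0519 to 0.0938 otherwise) and ended after quantile normalization (0.0589). That of AT5G24580 held without SMX replicate 3, control replicate 1 or control replicate 2 (0.0568 to 0.129 otherwise) and ended with the replicate block (0.107) or the spike score as a covariate (0.0624). That of AT2G19660 held without sucrose plus SMX replicate 2 or control replicate 1 (0.0555 to 0.144 otherwise) and ended after quantile normalization (0.0538) or with the spike score (0.0592). That of AT1G76590 held without sucrose plus SMX replicate 1, sucrose replicate 3, SMX replicate 3 or control replicate 1 (0.0519 to 0.101 otherwise), and ended with the block (0.107), the spike score (0.0592), quantile normalization (0.155), median centring (0.231), the intensity trend (0.251) and a mean above 4 (0.681). All are limma adjusted p-values by Benjamini-Hochberg. A further called gene, AT2G22750, a basic helix-loop-helix transcription factor mentioned after its values were seen, lay at the floor on all 3 sucrose plus SMX arrays, against 2.70, 2.50 and 2.57 with sucrose, so its change of −0.47 (SE 0.042; limma adjusted p = 0.00527) is a lower bound on a transcript close to background. Its call ended after median centring (0.0605).

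The naming rule added the 6 genes of lower level with SMX that came nearest to a call without reaching it. AT1G75900, of the GDSL lipase family, read 6.44, 6.30 and 5.76 with sucrose plus SMX, against 8.28, 7.33 and 7.50 with sucrose, a difference of −1.54 (SE 0.255; limma, Benjamini-Hochberg adjusted p = 0.0867). AT1G80180 differed by −1.07 (SE 0.171; limma adjusted p = 0.0764) and AT5G42250, of the zinc-binding alcohol dehydrogenase family, by −0.91 (SE 0.140; limma adjusted p = 0.0651). These 3 passed when the fit was confined to probe sets with a mean of at least 5 (0.0115, 0.024 and 0.0417), a filter added after the data were seen. AT1G62500, of the protease inhibitor and lipid transfer protein family, differed by −0.88, the protein kinase gene AT3G24715 by −0.64 and AT5G25475, with a B3 DNA-binding domain, by −0.45. The rule took only genes whose arrays did not overlap, as was so for 14% of probe sets averaging 5 or more.

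**Figure D2:**
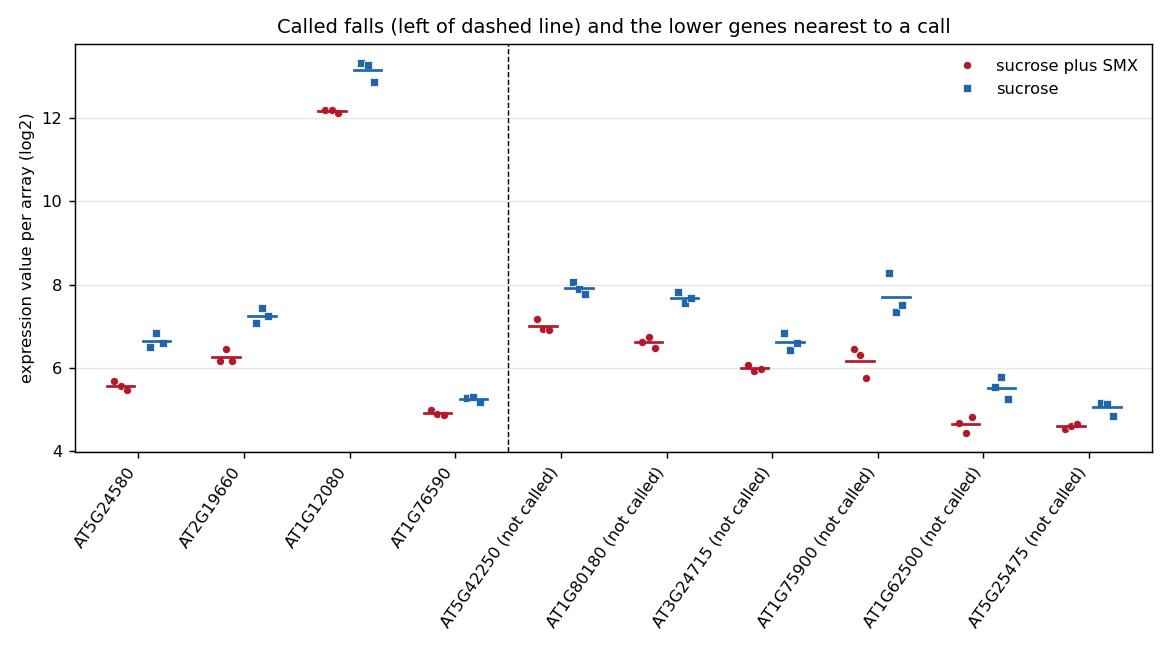
Log2 expression values of the 4 called falls with a mean of at least 5 (left of the dashed line) and the 6 genes nearest to a call (right), on each of 3 sucrose plus SMX arrays (red circles) and 3 sucrose arrays (blue squares), with means as bars. AT1G12080 stands near 12 and 13, and the gap of AT1G76590 is the smallest, at 0.34.

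Larger changes were seen among probe sets for which no gene was paired. Probe set 257008_at had the largest change of all, with 8.40, 8.59 and 8.60 with sucrose plus SMX against 4.25, 2.90 and 2.57 with sucrose, a rise of 5.29 (SE 0.387; limma, Benjamini-Hochberg adjusted p = 0.00185). Probe set 260623_at read 7.12, 6.40 and 6.73 with sucrose plus SMX against 3.14, 3.01 and 3.06 with sucrose and had the smallest p of the comparison, rising by 3.68 (SE 0.145; limma adjusted p = 5.25e-05). Its SD was 0.36 with sucrose plus SMX, 0.06 with sucrose, 0.02 with SMX and 0.03 in the control. The shared spread behind this SE and p therefore lies below that of the sucrose plus SMX arrays. Probe set 250500_at rose by 2.52 (SE 0.288; limma adjusted p = 0.0158), a call that ended without sucrose replicate 2 (0.0654) or with the replicate block (0.0756). In the other direction, 260152_at read 4.11, 3.92 and 4.38 with sucrose plus SMX against 8.07, 7.49 and 7.45 with sucrose, a fall of 3.53 (SE 0.243; limma adjusted p = 0.00142). Probe set 251428_at read 2.66, 3.14 and 2.73 with sucrose plus SMX against 7.67, 5.97 and 5.42 with sucrose and fell by 3.51 (SE 0.498; limma adjusted p = 0.0414), with its call held without sucrose replicates 1 or 3 and ended in the 10 other fits with an array left out (0.078 to 0.147). This call also ended with the replicate block (0.123), after quantile normalization (0.0521) and with the spike score (0.0773).

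No enzyme of the pathway that SMX inhibits was called. Of 13 probe sets for folate and single-carbon metabolism, 10 with a mean of at least 5, 6 were higher and 7 lower with sucrose plus SMX, and the median change was −0.02, against 0 over all probe sets. AT4G30000, which encodes the mitochondrial dihydropteroate synthase that also carries the pyrophosphokinase step before it, read 4.03, 4.06 and 3.97 with sucrose plus SMX, against 4.67, 4.35 and 4.63 with sucrose. The 3 arrays with SMX were all below those without it. The difference was −0.53 (95% interval −0.90 to −0.16; unadjusted p = 0.0101; limma, Benjamini-Hochberg adjusted p = 0.519), at a level not far above the floor. The probe set of the cytosolic copy, AT1G69190, lay at the floor or within 0.01 of it on all 6 arrays.

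Earlier in the pathway, ADCL, which makes p-aminobenzoate, the compound SMX competes with, averaged 8.26 ± 0.05 with sucrose plus SMX and 8.28 ± 0.16 with sucrose (SD, n = 3), a difference of −0.02 (95% interval −0.39 to 0.35). FOLB1 and FOLB2, dihydroneopterin aldolases that act upstream of the pyrophosphokinase, differed by 0.12 and −0.31. The salvage enzyme 5-FCL, which returns 5-formyltetrahydrofolate to the active pool, differed by −0.23, with sucrose arrays spread from 5.24 to 6.68. GTP cyclohydrolase I, AT3G07270, the first enzyme of the pterin branch, differed by 0.41 (95% interval −0.07 to 0.88). The folate interconversion enzymes AT3G12290 and AT2G38660, of the methylenetetrahydrofolate dehydrogenase family, differed by 0.00 and 0.07. AT2G21550, of the bifunctional dihydrofolate reductase and thymidylate synthase family, differed by −0.08. Of the glycine cleavage proteins, which load single carbons onto folate, AT1G11860 (T protein) differed by −0.18, AT1G32470 (H protein) by −0.08 and AT2G35120 (H protein) by 0.33 (unadjusted p = 0.0458). The limma adjusted p-values of these 11 were 0.886 to 1. In the 3 probe sets of methionine and methyl group metabolism and the 6 of purine and pyrimidine synthesis none was called either, with medians of 0.33 and 0.04.

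GH3 enzymes attach amino acids to the auxin indole-3-acetic acid, and several are rapidly switched on by auxin. None was called. GH3.3 read 6.90, 7.25 and 7.05 with sucrose plus SMX, against 7.29, 6.99 and 6.87 with sucrose, a difference of 0.02 (95% interval −0.79 to 0.82). The groups overlapped fully. WES1 (GH3.5) differed by −0.23 (95% interval −1.12 to 0.66) and GH3.17 by −0.09 (95% interval −0.48 to 0.31). GH3.1 was scattered, at 2.54, 5.01 and 3.03 with sucrose plus SMX against 3.97, 5.37 and 4.95 with sucrose, and GH3.9 lay at the floor on every array. Over the 15 probe sets of early auxin response genes, 7 with a mean of at least 5, none was called, 4 were higher and 10 lower, and the median change was −0.04. IAA29, a repressor of auxin response, stood out within this list at 4.95, 4.30 and 4.82 with sucrose plus SMX, against 6.58, 6.09 and 5.78 with sucrose. Its difference of −1.46 (SE 0.273) did not pass (limma, Benjamini-Hochberg adjusted p = 0.123).

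Members of the gene lists that were not called are named in the next 3 paragraphs by their values, and were chosen after these were seen. The 41 lists with at least 3 probe sets held 491 distinct probe sets with the smaller lists included, of which 4 were called, all higher: AT5G64120 among class III peroxidases, AT2G43620 among chitinases, ATPMEPCRB among pectin enzymes and CML41 among calcium-binding proteins. At an unadjusted p under 0.05, 2.41% of all probe sets were higher and 3.11% lower (3.19% and 4.36% of those averaging 5 or more), which are the shares to set the lists against.

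Class III peroxidases, secreted enzymes that cross-link or loosen walls, leaned upward. Of 55 probe sets, 33 with a mean of at least 5, 1 was called higher and none lower. At an unadjusted p under 0.05, 10 were higher (18.2%) and 3 lower (5.45%), and the median was 0.08. AT5G39580 read 9.18, 8.51 and 9.55 with sucrose plus SMX, against 7.57, 7.36 and 7.64 with sucrose, a difference of 1.56 (limma, Benjamini-Hochberg adjusted p = 0.0637). AT2G37130 was lower without overlap, at 11.08, 10.88 and 10.80 with sucrose plus SMX, against 11.61, 11.51 and 11.33 with sucrose. Of 10 chitinase probe sets, 8 were higher and 1 lower, 1 was called, and the median was 0.51. AT4G01700 stood at 9.68, 9.16 and 9.68 with sucrose plus SMX, against 8.50, 8.23 and 9.03 with sucrose. The chitinase list was drawn up after the call of AT2G43620 was known, so its count describes the family and no more.

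Root hair genes had the highest median of the lists with at least 3 probe sets. All 6 were higher, 4 of them at an unadjusted p under 0.05, none was called, and the median was 0.97. EXPA7 and EXPA18, expansins that loosen the wall of growing root hairs, also served as the root markers. With these genes a larger share of root and a higher expression in root hairs cannot be told apart. EXPA7 read 7.00, 7.98 and 7.44 with sucrose plus SMX, against 5.68, 6.53 and 6.67 with sucrose. EXPA18 read 9.26, 9.46 and 9.66 with sucrose plus SMX, against 7.96, 8.27 and 8.61 with sucrose. Both differed by 1.18 without overlap (limma, Benjamini-Hochberg adjusted p = 0.361 and 0.333). The root hair peroxidases AT3G49960 and AT4G26010, counted above too, differed by 1.27 and 0.71. Of 7 shoot and cotyledon markers, 2 were higher, by at most 0.10, and 4 lower, with a median of −0.04. The members given next with their levels are from the lower ones, and the arrays of RCA overlapped between the groups. RCA, which activates Rubisco, was at 12.30, 11.80 and 11.18 with sucrose plus SMX, against 11.98, 12.16 and 12.20 with sucrose, and the light-harvesting gene LHCB4.2 was at 9.38, 9.78 and 8.44 with sucrose plus SMX, against 10.07, 10.19 and 10.39 with sucrose. The shoot meristem gene CLV3 lay within 0.01 of the floor on all 6 arrays. In the 69 plastid-encoded probe sets none was called or had an unadjusted p under 0.05. Both root markers and 4 of the 7 shoot markers averaged 5 or more in the higher group, and the part of root and shoot proportions in the results was not tested.

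Other lists held single members that came near a call. Of 13 glutathione transferases, detoxifying enzymes, 7 were higher and 5 lower, with a median of 0.01. At an unadjusted p under 0.05, 3 were higher (23.1%) and none lower. GSTU22 read 8.52, 8.38 and 8.92 with sucrose plus SMX, against 7.15, 7.20 and 6.23 with sucrose, a difference of 1.75 (limma, Benjamini-Hochberg adjusted p = 0.0648), and GSTU25 differed by 1.42 (0.104). XTH26, a xyloglucan-remodelling enzyme, differed by 1.86 (limma adjusted p = 0.0775) in a list of 10 with a median of −0.00. Expansins split, with 3 of 19 higher and 2 lower at an unadjusted p under 0.05. EXPA8 was at 7.57, 8.84 and 8.82 with sucrose plus SMX, against 9.35, 9.80 and 10.03 with sucrose. Among 4 jacalin-related lectins, JAL22 was at 8.89, 8.87 and 7.79 with sucrose plus SMX, against 11.05, 10.43 and 10.20 with sucrose, a difference of −2.04 (limma adjusted p = 0.107). Sugar starvation genes, most of them enzymes of amino acid breakdown, were lower in all 5 probe sets with a median of −0.53. None was called, and 3 of the 5 (60%) were lower at an unadjusted p under 0.05. MCCA, a subunit of methylcrotonyl-CoA carboxylase in leucine breakdown, read 7.42, 7.46 and 7.28 with sucrose plus SMX, against 9.99, 8.20 and 8.36 with sucrose. Sucrose replicate 1 was the highest array, and the other 2 sucrose arrays also lay above all 3 with SMX. UPB1, a transcription factor of the root tip, was at 4.41, 5.18 and 4.39 with sucrose plus SMX, against 6.79, 6.22 and 5.76 with sucrose (limma adjusted p = 0.225). LBD16, which starts lateral root formation, differed by 0.04.

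**Figure D3:**
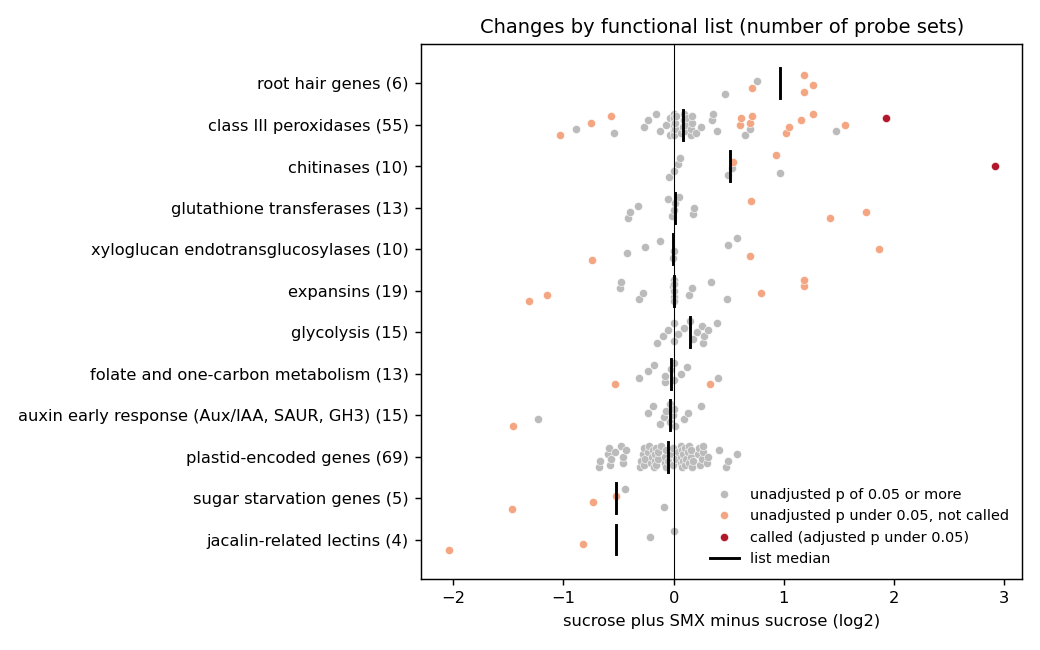
Log2 difference, sucrose plus SMX minus sucrose, of every probe set in 12 lists by function, with the number of probe sets in brackets and the list median as a black bar. Dark red marks called probe sets, orange those with an unadjusted p under 0.05 that were not called and grey the rest. The root hair genes have the highest median, 0.97, and folate genes centre on −0.02. Root hair genes shared with the peroxidases and expansins appear in both lists.

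The SMX difference without sucrose was mostly small for the genes called with sucrose. Among the 27 rises the median was 1.95 with sucrose (sucrose plus SMX minus sucrose) and 0.13 without it (SMX minus control), and 21 of the 27 were higher with SMX in the second. Among the 16 falls the medians were −1.23 with sucrose and 0.06 without it, and 6 of the 16 were lower with SMX in the second. Over all probe sets the median of SMX minus control was 0. The share of all probe sets higher or lower there was not counted, so the 21 and the 6 have no background beside them. Some of these differences were close to 0, such as 0.01 for AT2G43620. The calls chose the first of these values in each pair, so its size is a description. The fit called 19 probe sets for SMX against control (0.0835%), and 2 of the 43 were among them. AT2G16630 was at 9.06, 9.23 and 9.49 with SMX, against 7.97, 8.03 and 7.96 in the control, a rise of 1.28 (SE 0.137; limma, Benjamini-Hochberg adjusted p = 0.0166) beside 1.47 with sucrose. AT1G76590 was at 5.32, 5.34 and 5.45 with SMX, against 6.20, 6.14 and 6.18 in the control, a fall of 0.80 (SE 0.0443; limma adjusted p = 0.000925) beside a fall of 0.34 with sucrose. With a mean above 4 required, no probe set was called for SMX against control.

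**Figure D4:**
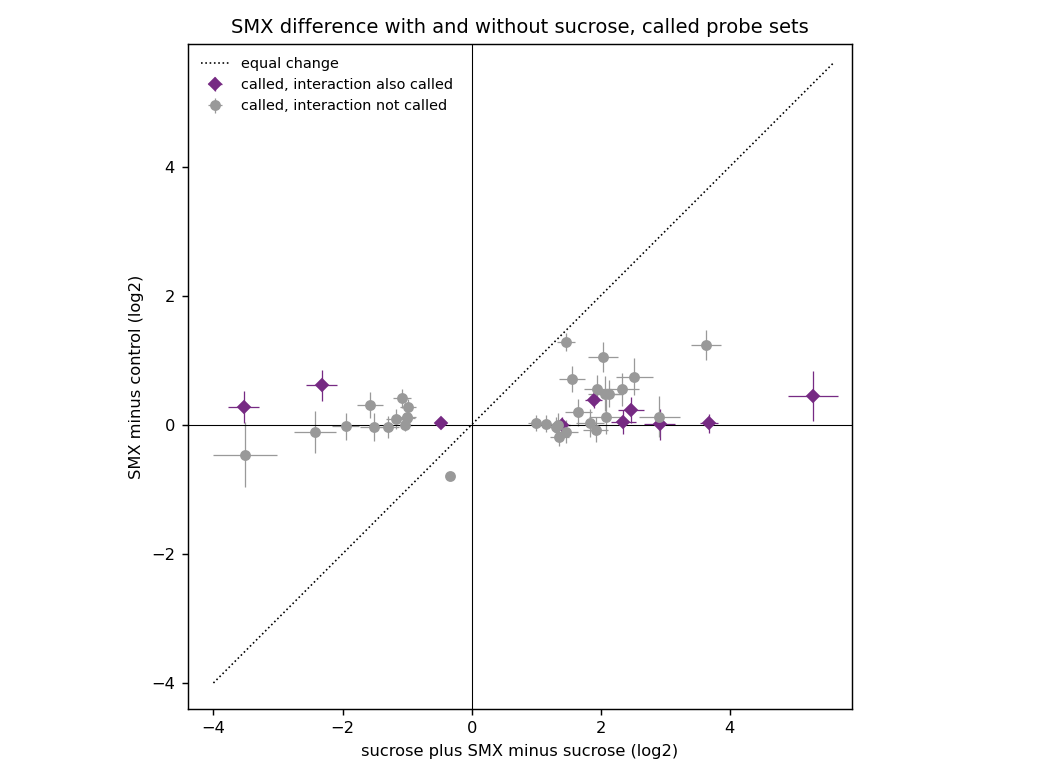
Change with SMX in the presence of sucrose (horizontal axis, log2, sucrose plus SMX minus sucrose) against the change without sucrose (vertical axis, log2, SMX minus control) for the 43 called probe sets, with bars of 1 standard error. Most points lie near 0 on the vertical axis, and the 10 purple diamonds are those whose interaction was also called.

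The interaction, the SMX difference with sucrose minus that without it, was called for 16 probe sets (0.0703%), and 10 of the 43 were among them. AT2G43620 read 2.57, 2.57 and 2.36 with SMX and 2.53, 2.38 and 2.57 in the control, so that the arrays with both additions were the only ones above 4, and its interaction was 2.91 (SE 0.336; limma, Benjamini-Hochberg adjusted p = 0.0397). AT5G40590 and AT1G74010 had interactions of 2.31 (SE 0.267; limma adjusted p = 0.0397) and 2.25 (SE 0.284; limma adjusted p = 0.0488). For AT5G42250 the 2 SMX differences had opposite signs, −0.91 with sucrose and 0.65 without it, neither of them called (limma adjusted p = 0.0651 and 0.356), and the interaction was −1.56 (SE 0.199; limma adjusted p = 0.0488). AT2G16630, called in both media, had an interaction of 0.19 (SE 0.194; limma adjusted p = 0.902). With the replicate block 1 interaction was called, that of 260623_at (0.01), and with the spike score as a covariate 3 were. An interaction sets arrays of unlike labelling against each other: the mean spike score was −0.25 with sucrose plus SMX, −0.23 with sucrose, 4.46 with SMX and 4.11 in the control. Interaction calls of AT2G43620, AT5G40590 and AT1G74010 held in 5, 5 and 1 of 12 fits with an array left out, with limma adjusted p up to 0.0961, 0.0961 and 0.105 in the others. That of AT5G42250 held in 1 of 12, with limma adjusted p up to 0.131.

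**Figure D5:**
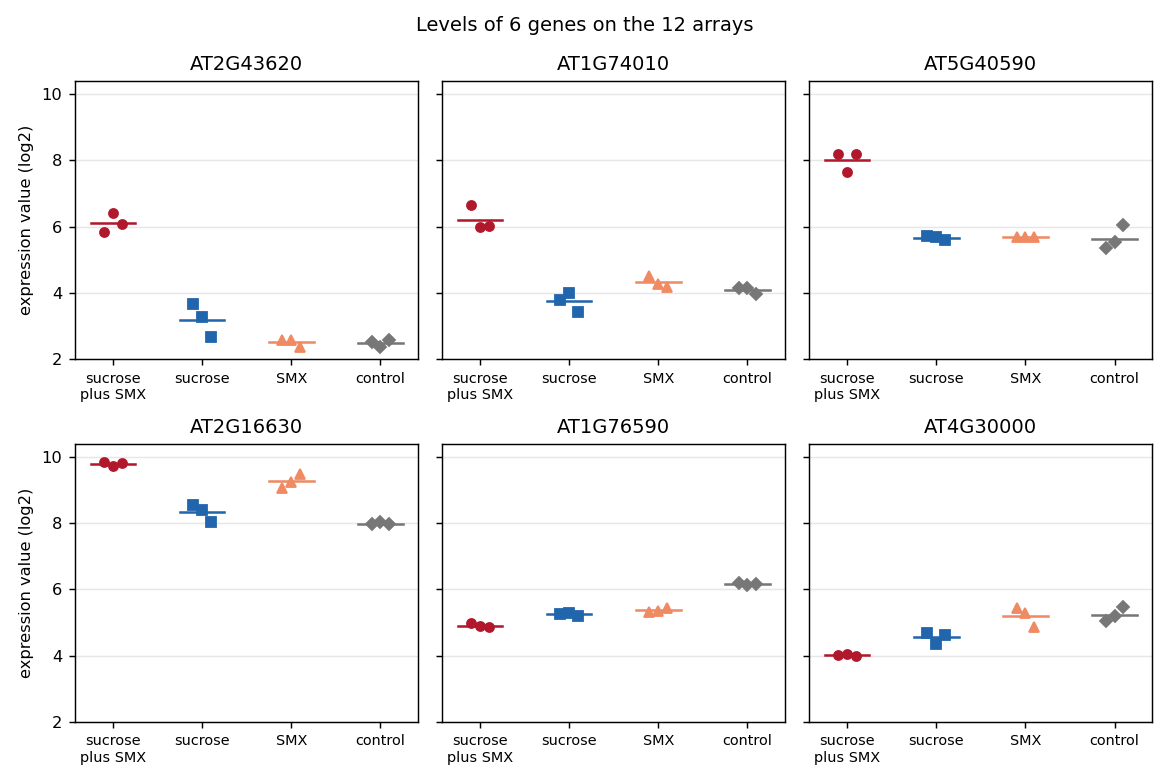
Log2 expression values of 6 genes on each of 3 arrays of sucrose plus SMX, sucrose, SMX and control, with group means as bars. In the top row (interaction called) all 3 sucrose plus SMX arrays stand above the other 9. Below, AT2G16630 is higher and AT1G76590 lower with SMX in both media, and AT4G30000, the mitochondrial target enzyme, was not called.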

How the data were processed

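The deposited value of each probe set on each array was on the log2 scale. GCRMA and limma are named in the submitters' processing notes, without a version or an order of steps. The log base was read from the range of the values. Nothing was renormalized. All 12 arrays entered 1 limma fit (limma 3.58.1, R 4.3.3; lmFit, eBayes; residual df 8, prior df 0.577) with 4 groups, and p-values were adjusted by Benjamini-Hochberg over 22746 probe sets, the 64 Affymetrix controls left out. Every column was mapped to a sample (0 unmapped). The fit was tested on simulated data with independent normal noise and 1 SD per probe set for all groups. The simulation had no replicate pairing, floor or repeated values, so it cannot show how these affected the calls.

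Names came from the platform annotation, updated by gene ID to TAIR10.1: 13513 probe sets had 1 gene (13436 matched), 503 several and 8730 none. Close paralogs may share probes.

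Same-numbered sucrose plus SMX and sucrose arrays deviated together (r = 0.221, 0.182 and 0.131 over 12799 probe sets; other pairs −0.15 to −0.01), so by the rule used the numbers pair the samples. The labels give no shared batch, and the main fit left this pairing out. Its SEs, intervals and p-values therefore do not take it into account. With the block the calls were 28 in place of 43, interactions 1 in place of 16, and SMX against control 5 in place of 19.

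The naming rule took called probe sets of 1 gene averaging 5 or more in the higher group, with non-overlapping arrays (up to 25 each way, filled to 10 with the smallest p among those meeting the last 3 criteria), up to 3 called members per list, the folate, target and GH3 genes, and up to 5 probe sets without a gene. No rise was filled. The members and lists were chosen with earlier results of these data known, and several lists were extended or trimmed after the files' gene names were seen. Alternatives were the block, fewer arrays, quantile normalization, median centring, filters on low values, an intensity trend, the spike score and leaving out arrays. A planned promoter search was not run.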

Additional observations from a re-analysis of the deposited data

Results flagged for a closer look

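The SMX difference with sucrose departed from that without sucrose, by the interaction term of the limma fit with Benjamini-Hochberg adjustment, for 16 probe sets. Among those of 1 gene named in the report, the interaction was 2.91 for AT2G43620, 2.25 for AT1G74010, 2.31 for AT5G40590, −1.56 for AT5G42250, 1.51 for AT5G12420 and −0.50 for AT2G22750 (limma adjusted p from 0.0397 to 0.0488). AT2G22750 lay at the floor on all sucrose plus SMX arrays, so its value is a bound. Among probe sets with no paired gene, 257008_at had 4.84, 260623_at 3.66 and 260152_at −3.81 (limma adjusted p = 0.0397, 0.00102 and 0.0254). With the replicate block 260623_at alone stayed called, and with the spike score it was joined by UGT85A5 and AT5G37620 (limma adjusted p = 0.0487 for both), named here after their values were seen. These 2 genes differed by −0.00 and −0.00 with SMX in sucrose. Both lay near the floor, with group means of 2.14 to 3.05 (UGT85A5) and 2.38 to 2.75 (AT5G37620). The interaction call of AT5G37620 ended after quantile normalization (limma adjusted p = 0.413). Those of 260623_at, 260152_at and AT5G37620 held in all 12 fits with an array left out. No group of 4 or more arrays was available to look for single outlying arrays.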

How the results depend on the processing

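The number of probe sets called for sucrose plus SMX against sucrose was 43 and depended on the spread and the filter used. With the replicate block, the pairing by replicate number, it was 28 (18 higher, 10 lower), with the interaction at 1 and SMX against control at 5; the named calls that ended are given with each gene, and 24 of the 43 stayed called. It was 0 in a fit of the 6 sucrose arrays (0 higher, 0 lower) and 0 when these were blocked, an alternative chosen after seeing the data. With a mean log2 value above 4 it was 66 (34 lower), above 6 it was 38 (11 higher, 27 lower), and SMX against control then gave 0 both times. Keeping probe sets whose higher group averaged 5 or more, also chosen after seeing the data, gave 83 (43 lower), an interaction count of 28 and 0 for SMX against control. Probe sets of 1 gene alone gave 22 (17 higher, 5 lower), 6 interactions and 10 for SMX against control, since fewer were tested. Quantile normalization gave 8 interactions, the spike score 3, and median centring 9 calls for SMX against control. Leaving out single arrays gave 26 to 52 calls, 19 to 38 higher, 5 to 27 lower, 7 to 48 interactions and 9 to 70 for SMX against control. Of the 43, 20 held in all 12 of these fits, and 37, 41 and 42 after quantile normalization, median centring and an intensity trend. No called probe set reversed its sign under any alternative it was tested in, but this was largely fixed in advance. The fits of 6 arrays, the block, the filters and the intensity trend use the same group means. Leaving out 1 array cannot reverse a difference between groups that do not overlap. The cause of the shifts in the counts was not tested.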

Other observations

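Several lists showed no call and no member at an unadjusted p under 0.05 beyond those already given. Among 11 autophagy genes, whose products recycle cell contents, 4 were higher and 7 lower with sucrose plus SMX, with a median of −0.12. Of 11 seed storage and late embryogenesis genes, 4 were higher and 6 lower with a median of −0.12. The 5 chlorophyll synthesis probe sets had a median of −0.00.

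In some lists 1 or 2 members differed at an unadjusted p under 0.05, none of them called by limma. These members were chosen after their values were seen. Among 20 sugar transporters, SWEET16, a vacuolar sugar carrier, read 6.08, 5.95 and 5.94 with sucrose plus SMX, against 7.55, 6.53 and 6.75 with sucrose. APL3, a large subunit of the enzyme that commits glucose to starch, read 8.60, 8.24 and 8.42 with sucrose plus SMX, against 7.53, 7.86 and 7.74 with sucrose, a difference of 0.71 (limma, Benjamini-Hochberg adjusted p = 0.184). WRKY6, a stress-linked transcription factor, read 6.66, 6.36 and 6.74 with sucrose plus SMX, against 5.98, 6.22 and 6.12 with sucrose. Of 52 UDP-glycosyltransferases, 1 differed at that threshold, UGT73B1, by −0.37.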
